A study of Mus musculus with 6 samples.

Results

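The genes described here encode 7 core subunits of the anaphase-promoting complex (APC/C) (Anapc1, Anapc2, Anapc4, Anapc5, Cdc16, Cdc23 and Cdc27), its co-activators Cdc20 and Fzr1, and its inhibitor Fbxo43. They were taken by symbol, and all 10 were found among the 23235 rows of the expression table. Transcript levels were measured by RNA sequencing in growing oocytes of Pabpn1-null mice (Pabpn1fl/fl;Gdf9-Cre) and of WT mice, with 3 samples of 10 oocytes for each genotype and a C57BL/6 strain in both by the labels (C57BL/6J in the study's methods). In the Pabpn1-null mice both Pabpn1 alleles are floxed and Cre recombinase is driven by the Gdf9 promoter, which is active in oocytes, so that PABPN1, a nuclear protein that binds poly(A) tails, is removed from the oocyte and not from the follicle cells around it. The age of the mice at collection for sequencing and the exact genotype of the WT mice are not given in the sources used here, nor do they state whether the samples of a genotype are from different mice, and p-values here cover only the spread between the samples.

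The APC/C is a large ubiquitin ligase that marks cyclins, securin and other proteins for destruction by the proteasome. A scaffold of large subunits carries a catalytic module, a cullin with a RING protein, and an arm of subunits with tetratricopeptide repeats, to which the co-activators CDC20 and CDH1, the product of Fzr1, dock with their substrates. In mouse oocytes APC/C with CDH1 keeps cyclin B1 low during the long prophase arrest, and APC/C with CDC20 drives anaphase of meiosis I. The inhibitor EMI2, the product of Fbxo43, holds the ovulated egg in metaphase until fertilization.

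Pabpn1, the targeted gene, was at 0.595, 0.878 and 1.37 FPKM (read fragments scaled to transcript length and to the mapped reads of a sample) in the Pabpn1-null samples, against 21.9, 33.4 and 21.8 FPKM in the WT samples. Its mean level was thus 3.68% of the WT mean, so the level of the targeted gene fits the labels of all 6 samples. The 12 oocyte markers examined were each above 1 FPKM in every sample, and their summed level was 17955 to 19671 FPKM in Pabpn1-null and 16771 to 19528 FPKM in WT samples. Of these markers 7 were higher in Pabpn1-null oocytes, Ddx4 the most (log2 change 1.47), and 3 were lower, Figla, Oosp1 and Npm2 (-0.90, -1.04 and -0.68), with a median log2 change of 0.45. The summed level of 12 granulosa cell markers was 31.6 to 45.3 FPKM in Pabpn1-null and 32.8 to 38.8 FPKM in WT samples. Foxl2 was near 0 in both. Amh was at 0.216, 0.562 and 0 FPKM in Pabpn1-null samples and at 0 in every WT sample. Of the granulosa cell markers, 8 passed the filter on low values. Inha was higher in Pabpn1-null samples (13.1, 18.8 and 5.81 FPKM, against 7.24, 3.11 and 5.04 FPKM in WT). Cyp19a1 was lower (3.41, 4.28 and 6.10 FPKM, against 9.25, 13.2 and 20.3 FPKM in WT). Nr5a2 was at 10.7, 9.56 and 9.17 FPKM in Pabpn1-null samples, against 6.74, 8.54 and 5.59 FPKM in WT samples, and did not pass the test. Summed markers of theca and stromal cells were at 1.60 to 2.04 against 1.28 to 1.76 FPKM, those of endothelial cells at 9.15 to 12.1 against 7.95 to 9.78 FPKM, and those of blood cells at 1.22 to 2.72 against 2.03 to 3.83 FPKM (Pabpn1-null against WT). Star, the only theca and stromal marker that passed the filter, was at 1.18, 0.928 and 1.33 FPKM in Pabpn1-null samples, against 0.390, 0.175 and 0.254 FPKM in WT samples (log2 change 0.75, limma adjusted p = 0.00651). The part of these markers in the results was not tested.

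Transcript levels of 5 of the 10 genes rose in Pabpn1-null oocytes and none of the 10 fell. Fzr1, Anapc4, Anapc5, Cdc16 and Fbxo43 rose to between 1.91 and 2.66 times their WT means, while Cdc20, Cdc27, Cdc23, Anapc1 and Anapc2 did not pass the test. All rows with more than 1 FPKM in at least 1 sample (12523) were tested together on log2(FPKM + 1) with limma and Benjamini-Hochberg adjustment, a scale that understates changes at low FPKM. At an adjusted p under 0.05, 27.9% of all rows tested were higher in Pabpn1-null oocytes and 20.2% were lower, so the 5 of 10 that rose are to be read against a table in which more than 20% of all rows moved in each direction. At an unadjusted p under 0.05 the counts for the 10 genes were again 5 higher and 0 lower. The median log2 change of the 10 genes was 0.63, against 0.09 over all rows tested. In 6 of the 10, the 5 called genes and Cdc23, every Pabpn1-null sample was above every WT sample (33.3% of all rows). None of the 10 showed the opposite pattern, found in 24.7% of all rows. The level of Cdc23 is uncertain, because its exons overlap those of another gene (given further on). FPKM is a share of each library, so more of these transcripts per oocyte and less of other RNA cannot be told apart, nor can the amount of a transcript and its capture by the oligo-dT primer.

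**Figure D1:**
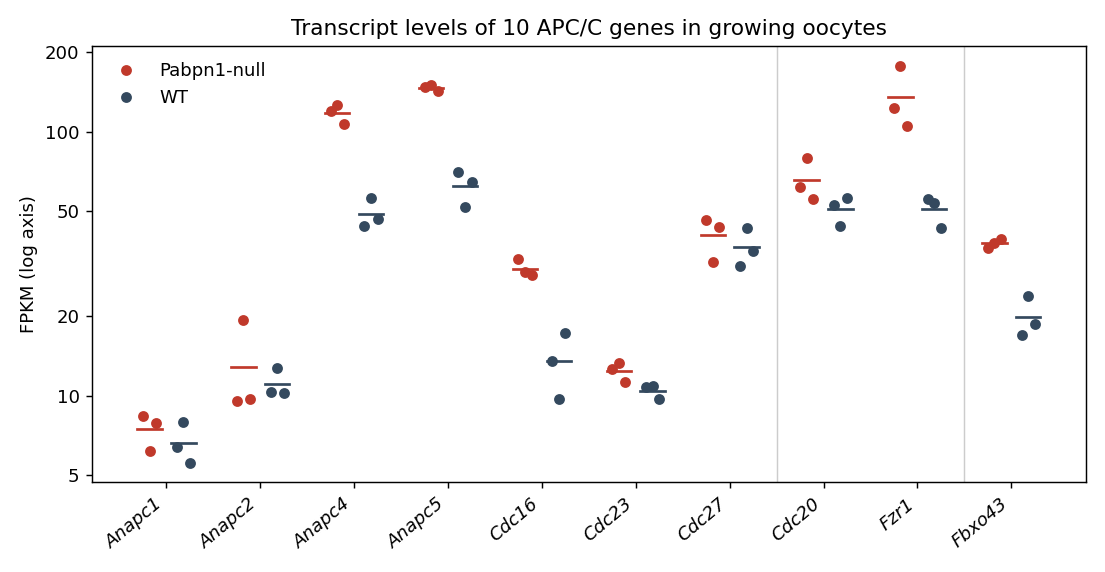
Transcript level (FPKM, log axis) of the 10 genes in each of the 3 Pabpn1-null and 3 WT samples, with points for samples and lines for group means, and core subunits, co-activators and inhibitor set apart by vertical lines. Pabpn1-null points lie wholly above WT points for Anapc4, Anapc5, Cdc16, Cdc23, Fzr1 and Fbxo43 and overlap with them for the other 4.

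Because PABPN1 acts on poly(A) tails, the poly(A) signals at the annotated transcript ends (GENCODE vM1, mm9) are shown. They belong to 3 members that rose, 3 members that did not pass the test and 4 other APC/C genes that fell (their values are given further on). In each line a single signal, AATAAA or ATTAAA, is in capitals. The first 3 lines belong to transcripts that rose, the next 3 to transcripts that did not pass the test and the last 4 to transcripts that fell.
Anapc5 (chr5:123237478-123237501, minus strand): acataaaattaaAATAAAttattt
Cdc16 (chr8:13781898-13781927, plus strand): tgtgtctttttcAATAAAtttatatttggg
Fbxo43 (chr15:36079823-36079852, minus strand): ttaaaactaataATTAAAtttaaaatttac
Anapc1 (chr2:128435845-128435874, minus strand): acaagtgaccccAATAAActcattatattg
Anapc2 (chr2:25141400-25141429, plus strand): gcttttgtggccATTAAAaggaactcttgg
Cdc20 (chr4:118105510-118105539, minus strand): tttattttttctAATAAAgttcgtatcttc
Anapc10 (chr8:82301188-82301217, plus strand): tctcaggaagtgAATAAAtaacattaaatg
Anapc15 (chr7:109050327-109050356, plus strand): caaaagagtggcAATAAAtgtctgctggat
Anapc16 (chr10:59450661-59450690, minus strand): agttctgtggcaAATAAAcccttacacgag
Ube2c (chr2:164598366-164598395, plus strand): caatgtatattaAATAAAtacacattgatt
AATAAA was found on the transcript strand in the last 50 bases of 61.5% of 18717 annotated coding transcripts, ATTAAA in 17.1% and either in 75.0%. Of the transcripts shown that rose, the signal in capitals was ATTAAA for Fbxo43 and AATAAA for Anapc5 and Cdc16. It was AATAAA for all 4 shown that fell. ATTAAA also occurs, unmarked, in the lines of Anapc5, which rose, and of Anapc10 and Ube2c, which fell. Anapc2, which did not pass the test, also carried ATTAAA. Neither signal was found in the last 50 bases of the annotated transcripts of Fzr1, Cdc27 and Anapc7. These matches are a description of the letters at annotated ends, which need not be the ends used in these oocytes.

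Among the large scaffold subunits, Anapc4 and Anapc5 rose together while Anapc1, the largest, did not pass the test. Anapc4, a scaffold subunit (chromosome 5 of mm9, 53225254 to 53259036, plus strand), was at 119.6, 126.8 and 107.0 FPKM in Pabpn1-null samples, against 43.9, 56.3 and 46.7 FPKM in WT samples. The lowest Pabpn1-null sample was well above the highest WT sample. Its log2 change was 1.25 (standard error, SE, 0.15, limma adjusted p = 1.84e-04). Anapc5, which bridges the scaffold to the arm of repeat subunits (chromosome 5, 123237478 to 123271348, minus strand), was at 147, 150.1 and 143 FPKM in Pabpn1-null samples, against 70.1, 51.8 and 64.6 FPKM in WT samples. The 3 Pabpn1-null samples lay within a few percent of each other and above every WT sample, and the log2 change was 1.24 (SE 0.14, limma adjusted p = 1.87e-04). Anapc1, the largest scaffold subunit (chromosome 2, 128435840 to 128513127, minus strand), was at 8.37, 6.16 and 7.89 FPKM in Pabpn1-null samples, against 6.39, 7.94 and 5.59 FPKM in WT samples. The groups overlapped, and the log2 change of 0.15 (SE 0.20) did not pass the test (limma adjusted p = 0.548).

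Anapc2, the cullin of the catalytic module (chromosome 2, 25127998 to 25141435, plus strand), was at 9.58, 19.4 and 9.75 FPKM in Pabpn1-null samples, against 10.4, 12.7 and 10.2 FPKM in WT samples. Replicate 2 of the Pabpn1-null samples stood above all others, and the remaining Pabpn1-null samples were below every WT sample. The log2 change was 0.13 (SE 0.26, limma adjusted p = 0.688), and -0.18 without that sample.

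Of the subunits with tetratricopeptide repeats, Cdc16 rose, and Cdc27 and Cdc23 did not pass the test. Cdc16 (chromosome 8, 13757676 to 13781938, plus strand) was at 33.1, 29.4 and 28.6 FPKM in Pabpn1-null samples, against 13.6, 9.77 and 17.3 FPKM in WT samples. The groups were apart, and the WT samples spread widely, and the log2 change was 1.14 (SE 0.20, limma adjusted p = 0.00158). Cdc27, the subunit that receives the tail of the co-activators (chromosome 11, 104364059 to 104411934, minus strand), was at 46.2, 32.0 and 43.5 FPKM in Pabpn1-null samples, against 30.9, 43.4 and 35.4 FPKM in WT samples. The groups overlapped over most of their range (log2 change 0.14, SE 0.19, limma adjusted p = 0.549).

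Cdc23, which binds the co-activators from the other side of the arm, was at 12.7, 13.3 and 11.3 FPKM in Pabpn1-null samples, against 10.8, 10.9 and 9.75 FPKM in WT samples. Each Pabpn1-null sample was above each WT sample, but by a small margin, and the log2 change of 0.22 (SE 0.16) did not pass the test (limma adjusted p = 0.277). The exons of Cdc23 share 1259 bases with those of Kif20a, a kinesin gene on the opposite strand. Kif20a was at 45.5, 47.2 and 45.9 FPKM in Pabpn1-null samples, against 8.02, 7.24 and 9.28 FPKM in WT samples (log2 change 2.37, limma adjusted p = 1.74e-05). Whether reads were counted by strand is not stated, and the level of Cdc23 is therefore uncertain.

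The co-activators differed in what the test found. Fzr1 (chromosome 10, 80828967 to 80841261, minus strand) was at 123, 178 and 105 FPKM in Pabpn1-null samples, against 55.8, 53.8 and 43.4 FPKM in WT samples. Every Pabpn1-null sample was above every WT sample, with replicate 2 the highest, and the log2 change of 1.37 (SE 0.20, limma adjusted p = 5.33e-04) was the largest of the 10. Cdc20 (chromosome 4, 118105506 to 118109957, minus strand) was at 61.6, 79.7 and 55.4 FPKM in Pabpn1-null samples, against 52.8, 43.9 and 56.2 FPKM in WT samples. The highest WT sample was above the lowest Pabpn1-null sample, and the log2 change of 0.35 (SE 0.17) did not pass the test (limma adjusted p = 0.119). Cdc20 shares 53 exon bases with Elovl1 on the opposite strand, which rose by 1.02 on the log2 scale (limma adjusted p = 0.00113), so its level is uncertain to that extent.

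The promoters of the co-activators are shown because Fzr1 rose and Cdc20 did not pass the test. They are the 200 bases before the RefSeq start sites in GRCm38.p6, with capitals for the CCAAT box (CCAAT or ATTGG) and for the cell cycle genes homology region (CHR, TTTGAA or TTTAAA), which in many genes of mitosis is bound by complexes that restrict transcription to late phases of the cell cycle. Both motifs were searched on both strands.
Cdc20 (chr4:118437344-118437543, minus strand): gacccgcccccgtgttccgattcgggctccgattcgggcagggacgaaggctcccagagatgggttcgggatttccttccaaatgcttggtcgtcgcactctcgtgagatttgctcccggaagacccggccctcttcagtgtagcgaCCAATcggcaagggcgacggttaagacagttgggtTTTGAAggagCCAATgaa
Fzr1 (chr10:81378371-81378570, minus strand): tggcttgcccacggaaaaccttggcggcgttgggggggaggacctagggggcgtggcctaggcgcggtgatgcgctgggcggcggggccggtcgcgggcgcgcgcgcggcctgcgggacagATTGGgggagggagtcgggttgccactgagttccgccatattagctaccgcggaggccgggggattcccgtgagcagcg
In the 250 bases before the start, Cdc20 had 1 CHR and 2 CCAAT boxes, and Fzr1 had 1 CCAAT box and no CHR. Of 32851 promoters, 25.2% held a CHR, 33.9% held a CCAAT box and 8.78% held both. No CHR was found in the promoters of Anapc4, Anapc5, Cdc16, Cdc27, Anapc1 or Anapc2 in this window, while Anapc7, which rose, and Anapc16 and Ube2c, which fell, had 1 each. None was found either for Anapc10 and Anapc15, which fell, or for Anapc11, Anapc13, Cdc26, Fbxo5 and Ube2s, which did not pass the test. A match is a description of the letters and not a binding site.

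Fbxo43 (chromosome 15, 36079815 to 36094639, minus strand) was at 36.3, 38.0 and 39.2 FPKM in Pabpn1-null samples, against 17.0, 23.8 and 18.7 FPKM in WT samples. The Pabpn1-null samples lay close together and above every WT sample, a log2 difference of 0.91 (SE 0.16, limma adjusted p = 0.00164).

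The 10 transcripts kept nearly the same order of levels in both genotypes, but the distance between the highest and the lowest core subunit was wider in Pabpn1-null samples. In Pabpn1-null oocytes Anapc5 (147 ± 3.58 FPKM, SD, n = 3), Fzr1 (135 ± 37.8 FPKM) and Anapc4 (118 ± 10.0 FPKM) stood above Cdc20 (65.6 ± 12.6 FPKM). In WT oocytes Anapc5 (62.2 ± 9.43 FPKM, SD, n = 3), Fzr1 (51.0 ± 6.64 FPKM), Cdc20 (51.0 ± 6.36 FPKM) and Anapc4 (48.9 ± 6.53 FPKM) were not apart from each other beyond their spread. The lower part of the order was Cdc27, Fbxo43, Cdc16, Anapc2, Cdc23 and Anapc1 by group mean in both genotypes, but several neighbours overlapped over their samples. These were Anapc2 and Cdc23 in both genotypes, Cdc27 and Fbxo43 in Pabpn1-null samples, and Fbxo43 and Cdc16 as well as Cdc16 and Anapc2 in WT samples. The ratio of the highest to the lowest core subunit within a sample was 17.6, 24.4 and 18.1 in Pabpn1-null samples, against 10.98, 7.09 and 11.6 in WT samples, with Anapc1 the lowest in all 6. This ratio was described after the values were seen and was not tested.

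Ratios of these transcripts within a sample do not depend on how the samples are scaled to each other, apart from the 1 FPKM added to each value. The ratio of Cdc20 to Fzr1 was 0.504, 0.451 and 0.531 in Pabpn1-null samples, against 0.948, 0.819 and 1.29 in WT samples. The co-activator transcripts were thus at similar levels in WT oocytes, while Fzr1 was the higher in each Pabpn1-null sample, a log2 difference of -1.02 (two-sided exact permutation test over samples, p = 0.1, adjusted over 6 ratios 0.15). A p of 0.1 is the smallest that 3 samples against 3 allow, so no ratio could pass the threshold. The ratio of Cdc27 to Cdc16 was 1.38, 1.09 and 1.51 in Pabpn1-null samples, against 2.19, 4.12 and 1.99 in WT samples. The groups did not overlap, and the WT spread was wide because of replicate 2 (log2 difference -0.998, exact permutation p = 0.1). Relative to the mean of the 7 core subunits, Cdc20 was lower in each Pabpn1-null sample than in any WT sample (log2 difference -0.58) and Fzr1 was higher (log2 difference 0.43), with an exact permutation p of 0.1 for each. Anapc4 and Anapc5 made up 70.8, 73.4 and 71.2% of the core sum in Pabpn1-null samples, against 61.3, 56.1 and 58.7% in WT samples, and the median log2 change of the 7 core subunits was 0.22, below the 0.35 of Cdc20. The difference for Fzr1 was 0.24 without Pabpn1-null replicate 2. The ratios of Fbxo43 to Cdc20 (log2 difference 0.56) and of Fbxo43 to Fzr1 (log2 difference -0.46) overlapped between the genotypes (exact permutation p = 0.2 for each), and the second was -0.25 without Pabpn1-null replicate 2.

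**Figure D2:**
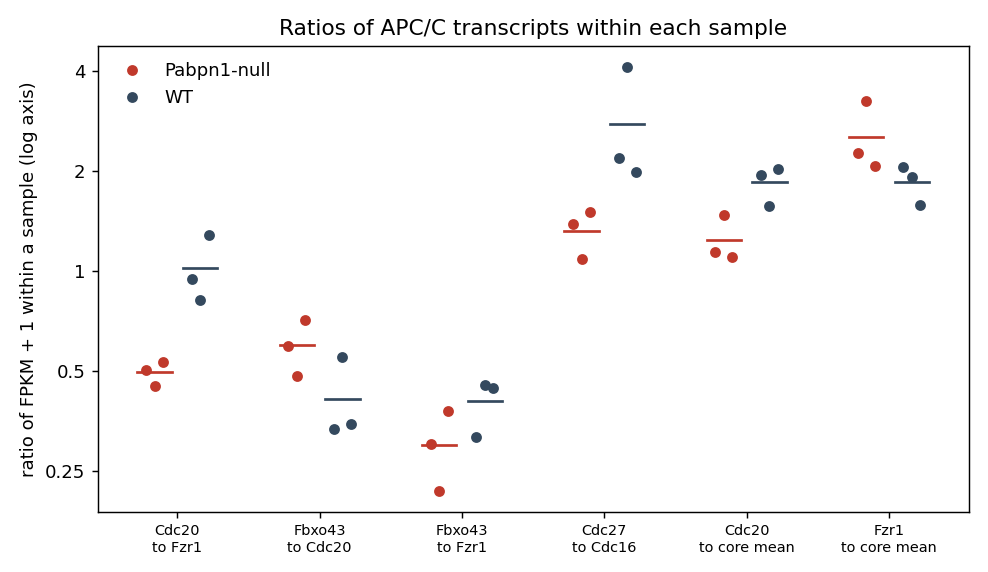
Ratio of FPKM + 1 between pairs of transcripts within a sample (log axis) for the 3 Pabpn1-null and 3 WT samples, with points for samples and lines for group means. The 3 ratios of Cdc20 to Fzr1 in Pabpn1-null samples lie between 0.451 and 0.531, below all 3 WT ratios, which lie between 0.819 and 1.29.

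Of 10 other genes of the complex and its machinery (7 further subunits, the inhibitor Fbxo5 and the ubiquitin-conjugating enzymes Ube2c and Ube2s), 1 rose and 4 fell, beside 27.9% and 20.2% of all rows, with a median log2 change of -0.31, against 0.09 over all rows. Under the supplementary table factors described further on, none was higher and 9 were lower (limma, 0 and 9 at an unadjusted p under 0.05). Over all 12523 rows the same factors gave 1176 higher and 4445 lower. Anapc7, a subunit with tetratricopeptide repeats like Cdc16, was at 26.1, 46.2 and 26.7 FPKM in Pabpn1-null samples, against 16.03, 13.4 and 20.2 FPKM in WT samples (log2 change 0.92, limma adjusted p = 0.0103). It was the only gene of these 10 that rose, it depended on the filter (limma adjusted p = 0.0936 without a filter), and replicate 2 was again the highest Pabpn1-null sample. Anapc15, a small subunit that promotes turnover of CDC20 in the checkpoint complex and is listed as 3200002M19Rik in the table, was at 94.8, 108 and 116 FPKM in Pabpn1-null samples, against 229.7, 229.5 and 266 FPKM in WT samples. Anapc16, another small subunit, was at 58.7, 61.4 and 65.6 FPKM in Pabpn1-null samples, against 133, 112 and 143 FPKM in WT samples. Both small subunits were below 50% of their WT mean, with log2 changes of -1.18 and -1.05 (limma adjusted p = 1.65e-04 and 3.41e-04).

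Anapc10, which with the co-activator forms the receptor for substrate degrons, was at 24.0, 22.3 and 24.7 FPKM in Pabpn1-null samples, against 41.8, 38.0 and 41.1 FPKM in WT samples. The log2 change was -0.74 (limma adjusted p = 0.00208), with a tight spread in both genotypes. Ube2c, the enzyme that places the first ubiquitin on APC/C substrates, was at 295, 325 and 291 FPKM in Pabpn1-null samples, against 726, 474 and 483 FPKM in WT samples (log2 change -0.85, limma adjusted p = 0.00265). The groups did not overlap, and Ube2c had the highest mean of the 20 APC/C genes in both genotypes. Anapc15 shares 1981 exon bases with Tomt, and Ube2c shares 592 with Tnnc2, each on the opposite strand, so their levels are uncertain, though both neighbours were at most 11.6 FPKM and were higher in Pabpn1-null samples. Anapc13 (log2 change -0.30) and Cdc26 (-0.31), small subunits that stabilize the repeat arm, did not pass the test although the Pabpn1-null samples were all below the WT samples. Anapc11, the RING subunit (-0.14), Ube2s, which extends ubiquitin chains (-0.26), and Fbxo5, the EMI1 inhibitor (0.01), did not pass it either and overlapped between the genotypes. Over all 14 subunits, 4 rose, 3 fell and 7 did not pass the test, close to the 27.9% and 20.2% of all rows.

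**Figure D3:**
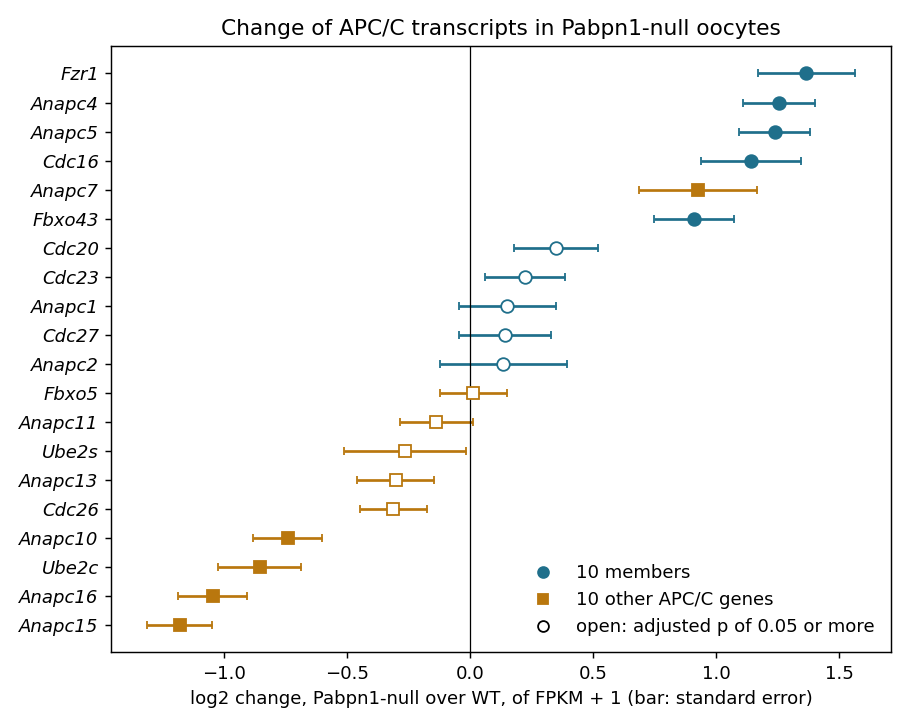
Log2 change of FPKM + 1, Pabpn1-null over WT, for the 10 genes (circles) and the 10 other APC/C genes (squares), with bars for the standard error and open symbols for an adjusted p of 0.05 or more. Values run from -1.18 for Anapc15 to 1.37 for Fzr1, and the 5 filled circles all lie above 0.9.

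The subunits that rose and those that fell differed in the length of their coding sequence. The 8 subunits with a coding length of 1698 bases or more all had log2 changes above 0, except that Anapc1, Anapc2, Cdc23 and Cdc27 lay below 0 under 1 or more of the other scalings given further on. The 6 with a coding length of 558 bases or less all had log2 changes below 0, except Anapc11 after scaling to the same total FPKM (0.06). Over the 14 subunits, Spearman's rho of the log2 change was 0.59 with coding length, 0.32 with transcript length and -0.48 with the WT level, a description over points that share 6 libraries. Across the table, of 1676 rows with a coding length up to 600 bases, 13.01% were higher in Pabpn1-null oocytes and 40.8% were lower (median log2 change -0.33), whereas of 4296 rows between 1600 and 6000 bases 35.2% were higher and 11.6% were lower (median 0.28). Above 6000 bases, longer than any of these subunits, 10.4% of rows were higher and 17.7% were lower (median -0.17). Of 1240 rows with a WT mean above 100 FPKM, 9.27% were higher and 54.6% were lower (median -0.44). Of 870 rows between 50 and 100 FPKM, the range of Anapc5 and Fzr1 in WT, 21.5% were higher, and of 1722 rows between 20 and 50 FPKM, the range of Anapc4, 28.6% were higher. The part of length and of level in these changes was not tested.

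**Figure D4:**
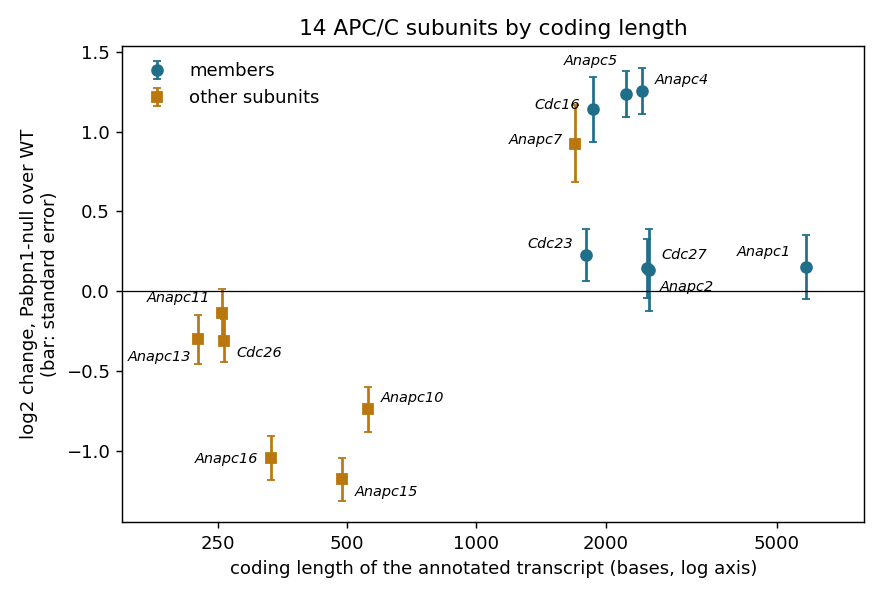
Log2 change, Pabpn1-null over WT, of the 14 APC/C subunits against the coding length of their annotated transcript (bases, log axis), with circles for the 7 core subunits among the members, squares for the other 7, and bars for the standard error. The 6 subunits of 558 bases or less lie below 0 and the 8 of 1698 bases or more lie above it.

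The result for the 10 genes depended in part on how the samples were scaled. The median log2 change of all rows was 0.09 as deposited and 0.25 after scaling to the same total FPKM, 0.0003 after median-of-ratios scaling and -0.0078 after quantile normalization. It was -0.36 when each sample was multiplied by the factor that separates the deposited values from the group means of the study's supplementary table. Under these factors, 3 of the 10 genes were higher and none lower, while 1176 rows were higher and 4445 lower in all. Fzr1 (0.81), Anapc4 (0.70) and Anapc5 (0.68) remained called, and Cdc16 (log2 change 0.61, limma adjusted p = 0.0539) and Fbxo43 (0.37, adjusted p = 0.239) did not pass the test. Cdc20 was called only at the same total FPKM (0.55, limma adjusted p = 0.0272). Anapc7 was not called under the factors (0.39, limma adjusted p = 0.258). Relative to the median of all rows, Fzr1 was higher by 1.27 on the log2 scale as deposited and by 1.17 under the factors, Fbxo43 by 0.82 and 0.73, and Cdc20 by 0.26 and 0.16, whereas Anapc1 lay 0.06 and 0.02 from it.

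**Figure D5:**
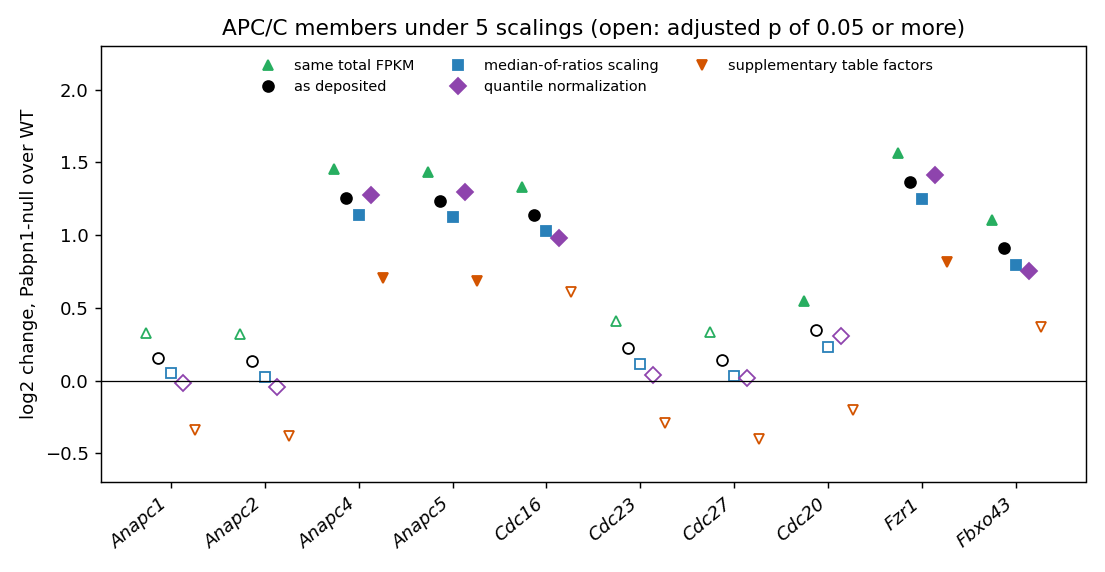
Log2 change, Pabpn1-null over WT, of the 10 genes under 5 scalings of the samples, with open symbols for an adjusted p of 0.05 or more. The downward triangles, for the supplementary table factors, lie lowest for every gene, between -0.40 for Cdc27 and 0.81 for Fzr1, and stay filled for Anapc4, Anapc5 and Fzr1.

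Genes of the spindle assembly checkpoint, which holds APC/C with CDC20 inactive until chromosomes are attached, were read from a list of 8. Of these, 3 rose and 2 fell, beside 27.9% and 20.2% of all rows. Bub1, a kinetochore kinase, was at 51.3, 52.6 and 55.5 FPKM in Pabpn1-null samples, against 25.4, 38.0 and 20.9 FPKM in WT samples. Ttk, the MPS1 kinase that starts the signal, was at 109.8, 105 and 108 FPKM in Pabpn1-null samples, against 51.1, 73.7 and 46.0 FPKM in WT samples. Mad1l1, the partner that brings MAD2 to kinetochores, was at 20.8, 31.4 and 20.02 FPKM in Pabpn1-null samples, against 12.1, 11.4 and 12.6 FPKM in WT samples. The groups were apart for each, with log2 changes of 0.94, 0.94 and 0.92 (limma adjusted p = 0.00439, 0.00212 and 0.00392). Mad2l1, which encodes the MAD2 protein that binds CDC20, was at 167, 165 and 194 FPKM in Pabpn1-null samples, against 364, 316 and 377 FPKM in WT samples, a log2 change of -1.002 (limma adjusted p = 2.89e-04). The other gene that fell, Bub1b, named after its values were seen, encodes the BUBR1 inhibitor of CDC20 and had a log2 change of -0.50 (limma adjusted p = 0.0415). It was not called in several alternatives, among them without Pabpn1-null replicate 1 or 3 or without WT replicate 1 or 2, where 1 gene of the list fell.

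Of 15 tested genes of the pathway that sets EMI2 and the metaphase arrest of the egg (16 listed, with Rps6ka2 under the filter), 6 rose and 4 fell, beside 27.9% and 20.2% of all rows. Plk1, the kinase that primes EMI2 for destruction, was at 137, 151 and 127 FPKM in Pabpn1-null samples, against 74.5, 69.2 and 76.8 FPKM in WT samples (log2 change 0.90, limma adjusted p = 5.05e-04). Fbxw11, a ubiquitin ligase subunit of the type that recognizes primed EMI2, was at 32.9, 33.7 and 30.5 FPKM in Pabpn1-null samples, against 15.3, 20.3 and 9.83 FPKM in WT samples (log2 change 1.10, limma adjusted p = 0.00357). These 2 genes act on EMI2 in the direction of its loss, and both were above WT in every Pabpn1-null sample. Ppp2ca, the catalytic subunit of protein phosphatase 2A, which stabilizes EMI2, was at 25.9, 21.0 and 26.4 FPKM in Pabpn1-null samples, against 53.95, 76.8 and 40.8 FPKM in WT samples (log2 change -1.15, limma adjusted p = 0.00221). Ppp2r5c, a regulatory subunit of the same phosphatase, was at 16.8, 15.5 and 18.1 FPKM in Pabpn1-null samples, against 35.3, 47.1 and 29.85 FPKM in WT samples (log2 change -1.09, limma adjusted p = 0.00128). Mos, the kinase at the head of the arrest pathway, was at 1034, 851 and 1089 FPKM in Pabpn1-null samples, against 975, 723 and 964 FPKM in WT samples, and did not pass the test (log2 change 0.16, limma adjusted p = 0.392, named after its values were seen). Without Pabpn1-null replicate 1, 3 of these genes were higher, and 10 were at the same total FPKM.

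Of 22 genes whose proteins the APC/C marks for destruction, 9 rose and 4 fell, beside the same shares of all rows. Kif11, a spindle kinesin, was at 37.0, 35.1 and 33.0 FPKM in Pabpn1-null samples, against 14.5, 16.5 and 9.87 FPKM in WT samples (log2 change 1.33, limma adjusted p = 5.72e-04). Nek2, a centrosomal kinase, was at 35.1, 54.0 and 31.7 FPKM in Pabpn1-null samples, against 15.1, 19.5 and 19.0 FPKM in WT samples (log2 change 1.10, limma adjusted p = 0.00228). Both were above WT in every Pabpn1-null sample. Cdc25a, a phosphatase that activates cyclin-dependent kinases, was at 6.51, 6.31 and 7.73 FPKM in Pabpn1-null samples, against 16.9, 21.1 and 14.5 FPKM in WT samples (log2 change -1.23, limma adjusted p = 7.30e-04). Pttg1, which encodes securin, was at 2377, 2136 and 2605 FPKM in Pabpn1-null samples, against 5123, 4297 and 4537 FPKM in WT samples (log2 change -0.97, limma adjusted p = 2.47e-04). The securin transcript was the most abundant of the 22 in both genotypes. The count of 9 rested on the full set of samples, and was 5 without any single Pabpn1-null sample or without WT replicate 1. Under the supplementary table factors, 1 of the 22 substrates was higher and 6 were lower, beside 1176 and 4445 of all 12523 rows. None of the checkpoint and metaphase arrest genes was higher under these factors, so none of the rises in these 2 lists was called. Of the 8 checkpoint genes 4 were lower, and of the 15 metaphase arrest genes 4 were lower, beside the same counts of all rows. At an unadjusted p under 0.05 (limma), 0 were higher in both lists, and 4 and 6 were lower.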

How the data were processed

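Each sample of 10 oocytes was lysed directly and its RNA reverse transcribed with oligo-dT primers (Smart-seq2). The authors cut reads to 50 bases, aligned them with TopHat2 2.1.1 to mm9 together with the ERCC spike-in sequences, and used Cufflinks 2.2.1 with UCSC gene models on uniquely mapped reads. Values are deposited as FPKM plus 1, and the 1 was subtracted. The study states a further normalization to the spike-in. The table has 0 spike-in rows, and the smallest steps of its low values track the total reads, so the values were taken as FPKM per library depth. The study's total reads were 17821766 to 19771960 per Pabpn1-null sample and 13371275 to 21920467 per WT sample. Read counts per gene are not in the table used here, so no counting interval is given and the precision rests on the SD of 3 samples.

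Rows above 1 FPKM in at least 1 sample (12523) were tested with limma 3.58.1 in R 4.3.3 (eBayes with trend on log2(FPKM + 1), genotype only, Benjamini-Hochberg adjustment, threshold 0.05), a step tested on simulated data. The simulated data held far fewer changed rows than were called here, so that check does not cover this setting. Ratios within samples were compared by two-sided exact permutation. Alternatives were a pseudocount of 0.1, no filter or a mean of at least 5 FPKM, 4 other scalings, eBayes without trend or robust, the replicate number as a block, and leaving out each sample. The factors of the supplementary table were estimated from its group means. The sources do not state whether they are the study's normalization to the spike-in, and this was not tested. Lengths, overlaps and coordinates came from GENCODE vM1 (mm9) and promoters from RefSeq (GRCm38.p6), matched by symbol. No promoter was printed for Fbxo43 and no sequence for Cdc23, and 1 poly(A) signal sequence is not reported here.

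The members and the gene lists were chosen with earlier results of these data known. All 10 members, Pabpn1 and the 10 other APC/C genes are named, and of the checkpoint, metaphase arrest and substrate lists up to 4 genes each with the largest log2 change among those with an adjusted p under 0.05.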

Additional observations from a re-analysis of the deposited data

How the results depend on the processing

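Fzr1, Anapc4, Anapc5, Anapc10, Anapc15, Anapc16 and Ube2c were called in the same direction in 16 of 16 alternatives, Cdc16 and Fbxo43 in 15 and Anapc7 in 14. Leaving out each sample in turn gave 5 members higher and 0 lower throughout, and 2528 to 3402 rows higher and 1737 to 2750 lower over the whole table. The supplementary table factors moved the counts most, to 3 members higher and to 1176 rows higher and 4445 lower, against 3491 and 2535 as deposited. Median-of-ratios scaling gave 2955 rows higher and 3006 lower, and scaling to the same total FPKM gave 4327 and 1778.

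Among genes that did not pass the test as deposited, the sign turned under the factors for Anapc1 (-0.34), Anapc2 (-0.38), Cdc20 (-0.20), Cdc23 (-0.29), Cdc27 (-0.40) and Fbxo5 (-0.54), and under quantile normalization for Anapc1 (-0.0195) and Anapc2 (-0.0451). With each sample left out in turn, Anapc2 ranged from -0.18 (without Pabpn1-null replicate 2) to 0.30, Ube2s from -0.49 to 0.0251 (without the same sample) and Fbxo5 from -0.0443 to 0.11, below 0 without Pabpn1-null replicate 1 or 3 or WT replicate 1 or 2. Fbxo5 also turned under median-of-ratios scaling (-0.10), and Anapc11 at the same total FPKM (0.0555). The cause was not tested. Of 336 values of single genes, 308 kept their direction and their side of the threshold. All ratios kept their direction.

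Same-numbered samples did not deviate together (correlations -0.014, -0.015 and 0.06), so the numbers were not taken as pairs. With the replicate block, 5 members were higher and 0 lower, as were 3478 and 2528 rows of the table. Depth per gene was not known.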
